A study of Mus musculus with 16 samples.

Results

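The transcripts of the respiratory chain, the enzyme complexes of the inner mitochondrial membrane, were followed through cultured mouse muscle cells. Members were the protein-coding genes whose symbols carry the stem of a subunit of complexes I to V, without regard to their values, and 99 gene identifiers of the 35613 genes with a matched transcript qualified. Of these, 86 are nuclear genes and 13 are mitochondrial genes. Complex I held 35 nuclear and 7 mitochondrial genes, complex II 4 nuclear genes, complex III 9 and 1, complex IV 20 and 3, and complex V, the ATP synthase, 18 and 2. Ndufa4 and its relative Ndufa4l2 were counted with complex IV, of which the Ndufa4 protein is known to be a subunit.

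All cells were primary myoblasts of skeletal muscle or descended from them, and all carried Pax7-nGFP, which puts GFP into the nuclei of cells that express Pax7, the gene of a transcription factor known from muscle stem cells and myoblasts. The study asked whether small molecules turn committed myoblasts into stem-like cells, which its labels call MPC without spelling the letters out. Each of 5 groups had 3 libraries from male animals of 16 weeks. GFP+ MPC were GFP-positive cells sorted from cultures that spent 2 to 3 passages as myoblasts and then 5 to 6 passages in a serum-replacement medium with basic FGF, 5 µM forskolin, 5 µM Repsox and 3 µM of the compound labelled CHIR9901. GFP+ myoblasts were sorted from myoblast medium, rich in serum and also with basic FGF, at passage 5 to 6. Bulk MPC were the same compound-treated cultures without the sort. Differentiated myoblasts had been kept for 3 days in a medium poor in serum, from passage 4 to 5. Bulk myoblasts were unsorted cultures at passage 3 in myoblast medium. In addition, 1 library of high-passage GFP+ MPC came from a female of 39 weeks, whose GFP-negative myoblasts had reached passage 8 before 2 passages with the 3 compounds.

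Complexes I and II pass electrons from NADH and succinate to ubiquinone, complex III passes them to cytochrome c, and complex IV passes them to oxygen. The protons pumped on the way drive complex V. The mitochondrial genome encodes core subunits of every complex except complex II, and all other subunits are imported from the cytosol, so assembly draws on transcripts of both genomes. Skeletal muscle fibres are rich in mitochondria and use muscle forms of several subunits of complex IV, whereas proliferating cells express the ubiquitous forms.

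Depth was 19.3 to 29.1 M estimated counts per library. The reporter gene's own source, Pax7, stood at 154, 234 and 230 TPM (the length-corrected share of all transcripts) in GFP+ MPC, at 258, 241 and 271 TPM in GFP+ myoblasts, at 10.2 to 27.8 TPM in bulk MPC, at 6.16 to 14.6 TPM in differentiated myoblasts and at 141 to 176 TPM in bulk myoblasts. A list of 9 genes of differentiated muscle summed to 1097 to 2984 TPM in GFP+ MPC, 471 to 729 in GFP+ myoblasts, 47280 to 53106 in bulk MPC, 57186 to 62162 in differentiated myoblasts and 18075 to 25646 in bulk myoblasts. A list of 4 proliferation genes summed to 1168 to 1471, 539 to 813, 60.6 to 172, 3.62 to 11.6 and 316 to 343 TPM in the same order of groups. Transcripts of differentiated muscle were thus abundant in all unsorted cultures, and in such samples a change in the share of a cell type and a change in RNA per cell cannot be told apart. A list of 3 genes of muscle stem cells and myoblasts, Pax7 among them, summed to 373 to 602, 1123 to 1156, 116 to 148, 238 to 275 and 730 to 881 TPM in the same order of groups. A list of 7 fibroblast genes summed to 561 to 925 TPM in GFP+ MPC and to 12.8 to 29.5 TPM in GFP+ myoblasts, with Lum at 0 in both. Adipocyte markers reached at most 5.5 TPM, with Ucp1 at 0 in both MPC groups, GFP+ myoblasts and bulk myoblasts, and heart markers at most 4.19 TPM. RNA of sorted and of unsorted cells was extracted with different kits, so kit and sort cannot be told apart. The MPC groups differed from the myoblast groups in compounds, medium and passages together, which cannot be told apart either. The labels call the 3 libraries of a group biological replicates, from several parental animals, and p-values rest on the spread between them.

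Mitochondrial transcripts differed widely between the unsorted groups. They made up 3.65%, 2.83% and 2.75% of all counts in GFP+ MPC, against 2.11%, 2.61% and 2.92% in GFP+ myoblasts. The ranges of these 2 groups overlapped (exact permutation test, two-sided p = 0.3). The share was 9.54%, 8.37% and 9.85% in bulk MPC and 5.4%, 6.34% and 6.12% in differentiated myoblasts, against 4.18%, 4.04% and 4.58% in bulk myoblasts. These 3 groups did not overlap, and each of their pairs reached p = 0.1, the smallest that an exact test of 3 against 3 can give. With bulk MPC and bulk myoblasts paired by replicate number, the exact permutation p was 0.25, the smallest that 3 pairs allow. The mean share of bulk MPC, 9.25%, was 3.3 percentage points above that of differentiated myoblasts, 5.95%.

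Nuclear members moved within a narrower range. On the TPM scale they summed to 3.2% ± 0.291 of all transcripts in GFP+ MPC, against 2.65% ± 0.0936 in GFP+ myoblasts (SD, n = 3 each). They summed to 3.75% ± 0.101 in bulk MPC and 3.54% ± 0.134 in differentiated myoblasts, against 2.72% ± 0.0724 in bulk myoblasts (SD, n = 3 each). Mitochondrial members take part of the same total. Of the TPM outside them, nuclear members made up 3.45% ± 0.313 in GFP+ MPC and 2.83% ± 0.131 in GFP+ myoblasts. That share was 4.86% ± 0.234 in bulk MPC, 4.19% ± 0.16 in differentiated myoblasts and 3.07% ± 0.106 in bulk myoblasts. The summed TPM of mitochondrial members was 2.33 ± 0.362 times that of nuclear members in GFP+ MPC and 2.47 ± 0.311 times in GFP+ myoblasts. The same ratio was 6.07 ± 0.529 in bulk MPC, 4.44 ± 0.46 in differentiated myoblasts and 4.12 ± 0.15 in bulk myoblasts. The ratio of bulk MPC lay above that of both other unsorted groups in every library, whereas differentiated and bulk myoblasts overlapped in it (exact permutation p = 0.4).

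**Figure D1:**
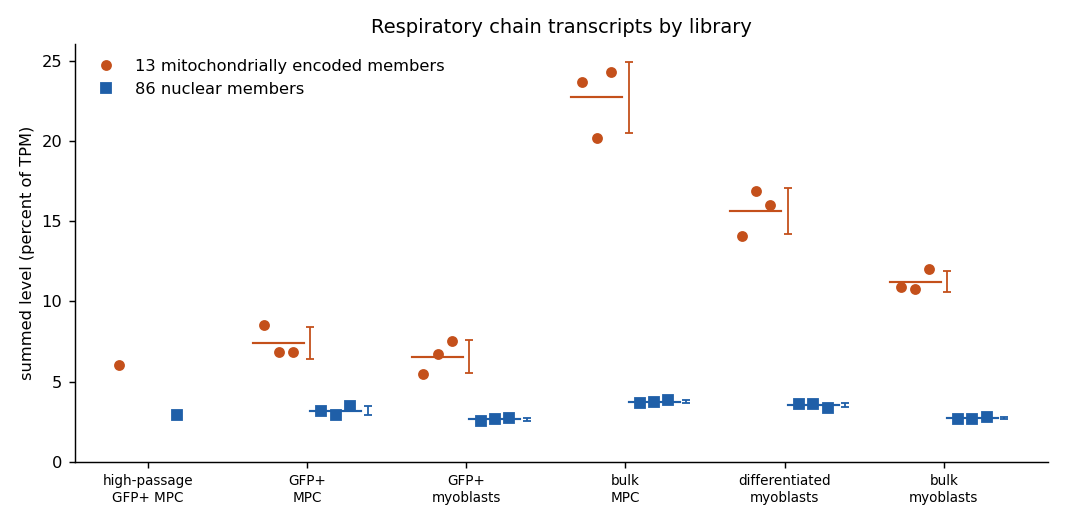
Summed level of the 13 mitochondrial and of the 86 nuclear members, as a percentage of TPM (linear axis from 0), by library. Points are libraries, bars the mean with the SD. Mitochondrial members reach 20.2 to 24.3% of TPM in bulk MPC and 10.8 to 12% in bulk myoblasts, and stay between 5.45 and 8.54% in both sorted groups, whereas nuclear members stay between 2.56 and 3.87% in the replicated groups.

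Per length, the ATP synthase led the nuclear members. Atp5b, its catalytic beta subunit, averaged 2157 ± 358 TPM in GFP+ MPC, 2055 ± 287 in GFP+ myoblasts, 2562 ± 124 in bulk MPC, 2572 ± 202 in differentiated myoblasts and 1888 ± 29 in bulk myoblasts (SD, n = 3 each), the highest nuclear level in all 5 groups. Atp5g3, a gene of the c-ring subunit, and Cox4i1, a regulatory subunit of complex IV, were among the next 3 in each group. At the other end, Cox7b2 and Cox8c, forms known from testis, had no count in any library. A second gene identifier carrying the symbol Atp5o reached at most 7.5 estimated counts. It shares 94% of its 31-base words with other genes that were quantified, first among them the overlapping gene Donson. These 3 did not pass the filter on low counts, and 96 members were tested.

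GFP+ MPC were first set against GFP+ myoblasts, which compares reporter-positive cells of the 2 media. The marker sums given above also differed without overlap between these groups, with the fibroblast, muscle and proliferation lists higher and the stem cell and myoblast list lower in GFP+ MPC, and their part in the changes below was not tested. Here 52 of 96 members were higher and 2 lower by edgeR's quasi-likelihood test at a Benjamini-Hochberg adjusted p under 0.05, where 26% of all 15533 tested genes were higher and 22.7% lower. Nuclear members had a median log2 change of 0.40 (51 higher and 2 lower of 83), mitochondrial members of 0.24 (1 higher of 13), and all tested genes of 0.09. The nuclear changes were spread over the complexes. Complex I had 18 of 35 members higher (median 0.36), complex II 2 of 4 (0.27), complex III 6 higher and 1 lower of 9 (0.45), complex IV 13 higher and 1 lower of 18 (0.44), and complex V 12 of 17 higher (0.45).

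Ndufv3, a small accessory subunit at the NADH-binding tip of complex I, rose most among nuclear complex I members. Its CPM (counts per library size scaled by TMM) were 66, 66.5 and 53.1 in GFP+ MPC, against 23.3, 23.3 and 22 in GFP+ myoblasts. All 3 GFP+ MPC libraries lay above all GFP+ myoblast libraries, a log2 change of 1.44 ± 0.13 (SE; edgeR adjusted p = 1.56e-06). Uqcrh, the hinge protein of complex III, had 232, 199 and 209 CPM in GFP+ MPC against 126, 133 and 122 CPM in GFP+ myoblasts. Its groups did not overlap, and the log2 change was 0.75 ± 0.08. Cox7a2l, a COX7A relative that joins complexes III and IV in supercomplexes, stood at 257, 263 and 198 CPM in GFP+ MPC and at 143, 140 and 123 CPM in GFP+ myoblasts. This was a log2 change of 0.82 ± 0.11, again without overlap. Atp5g2, another gene of the c-ring subunit, changed by 0.62 ± 0.09 and Sdhc, a membrane anchor of complex II, by 0.30 ± 0.08.

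Uqcrb and Cox6b2 were the members that fell. Uqcrb, a ubiquinone-binding subunit of complex III, had 39, 38.6 and 47.8 CPM in GFP+ MPC against 47.6, 46.1 and 64.3 CPM in GFP+ myoblasts (log2 -0.33 ± 0.13, edgeR adjusted p = 0.0428). The groups overlapped, and the call was lost without GFP+ MPC library 1 (-0.29) or 2 (-0.28) or GFP+ myoblast library 3 (-0.17). Cox6b2, a form of the COX6B subunit known from testis, had 6.02, 7.42 and 4.66 CPM in GFP+ MPC against 18.5, 9.68 and 7.9 CPM in GFP+ myoblasts. Its groups did not overlap, and it was 1.99-fold lower, with an SE of 0.32 on the log2 scale. Without GFP+ myoblast library 1 its log2 change was -0.55 and without GFP+ MPC library 3 it was -0.84, and neither passed. The only mitochondrial member that rose, mt-Nd5, had 2001, 1809 and 1681 CPM in GFP+ MPC against 1166, 1461 and 1360 CPM in GFP+ myoblasts (log2 0.46 ± 0.13, edgeR adjusted p = 0.0112). Without GFP+ myoblast library 1 it was 0.37 with an adjusted p of 0.0578. Leaving out 1 library at a time gave 41 to 60 members higher, and 13 of the 54 calls were lost without some single library. Fitted on the 2 sorted groups alone, 28 members were higher, where 2411 of all 13914 genes tested in that fit were higher.

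In whole cultures the change was broader. Bulk MPC had 94 of 96 members higher than bulk myoblasts and 1 lower, where 28.4% of all tested genes were higher and 30.1% lower (edgeR, adjusted p under 0.05). Nuclear members had a median log2 change of 0.95 (81 higher and 1 lower of 83) and mitochondrial members of 1.39 (13 of 13 higher), against -0.01 over all tested genes. Every nuclear member of complexes I, II, III and V that was tested was higher, with medians of 0.96, 0.78, 1.18 and 0.95. In complex IV 16 of 18 were higher and 1, Cox6b2, was lower (median 0.90). The fit behind these values did not pair the libraries by replicate number.

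Ndufv3 again led complex I, with 124, 108 and 117 CPM in bulk MPC against 33.1, 29.1 and 37.2 CPM in bulk myoblasts (log2 1.81 ± 0.13). Cyc1, the cytochrome c1 haem protein of complex III, had 477, 425 and 514 CPM in bulk MPC against 169, 164 and 188 CPM in bulk myoblasts (1.44 ± 0.13). Atp5d, the delta subunit of the ATP synthase's central stalk, had 502, 421 and 507 CPM in bulk MPC against 180, 182 and 212 CPM in bulk myoblasts (1.32 ± 0.13). In each of these 3 genes every bulk MPC library lay far above every bulk myoblast library. Sdha, the flavoprotein of complex II, changed by 0.89 ± 0.11. Cox8a, the ubiquitous COX8 form, did not pass (161, 144 and 175 CPM in bulk MPC, 139, 155 and 159 CPM in bulk myoblasts, 0.08 ± 0.11). The weakest call was Uqcrq, a small subunit of complex III (0.30 ± 0.12, adjusted p = 0.0487), which was lost without any of 5 single libraries, with changes of 0.22 to 0.33.

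**Figure D2:**
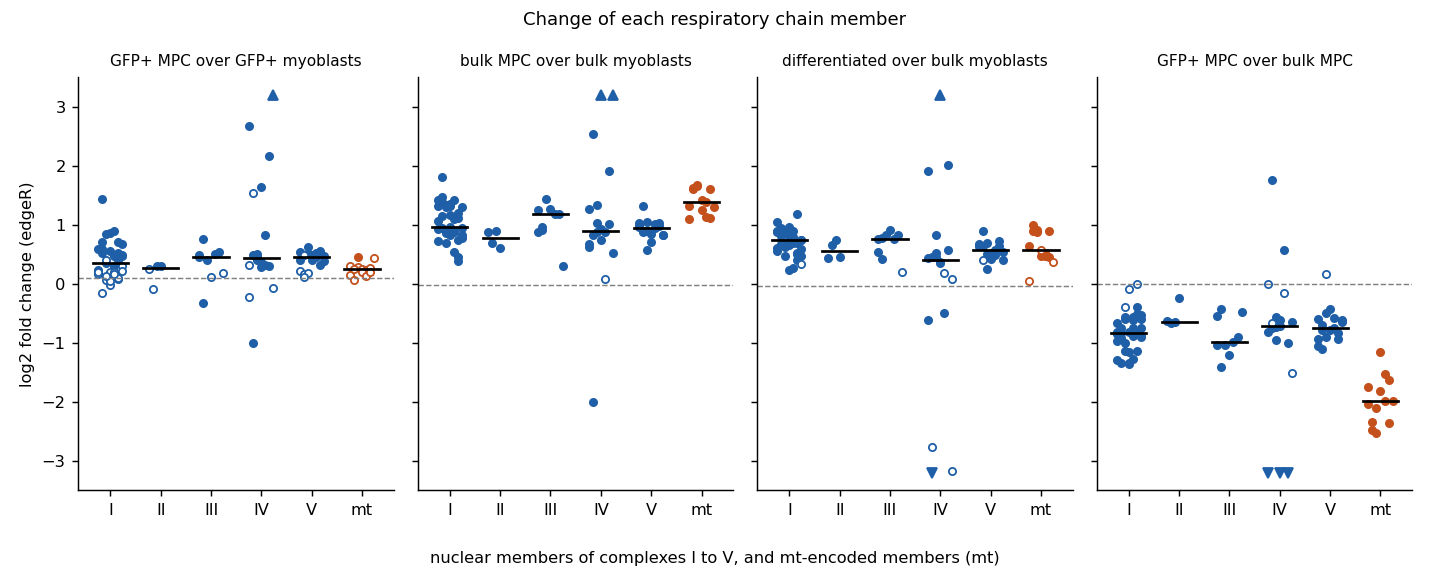
Log2 fold change of each tested member in 4 comparisons, by complex for nuclear members and together for mitochondrial members (mt). Filled points passed edgeR's adjusted p of 0.05, triangles lie beyond the axis, black bars are medians and the dashed line is the median of all tested genes. Nearly all points of bulk MPC over bulk myoblasts lie above the dashed line, and all mitochondrial points of GFP+ MPC over bulk MPC lie below it.

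Differentiated myoblasts moved the same way, though less. Of 96 members 83 were higher and 3 lower than in bulk myoblasts, against 25.6% higher and 28.6% lower over all tested genes. The median log2 change was 0.64 for nuclear members (73 higher and 3 lower), 0.56 for mitochondrial members (10 of 13 higher) and -0.03 over all genes. Without some single library 9 of the 86 calls were lost, among them those of mt-Atp6, mt-Atp8, mt-Co2, mt-Cytb and mt-Nd1. Complex I had 34 of 35 members higher (0.74), complex II 4 of 4 (0.56), complex III 8 of 9 (0.76) and complex V 16 of 17 (0.57). Complex IV differed in make-up, with 11 higher and 3 lower of 18 (0.41).

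Ndufa6, an accessory subunit of complex I of the LYR family, had 81.6, 78.3 and 76.1 CPM in differentiated myoblasts against 32.3, 33 and 38.6 CPM in bulk myoblasts (log2 1.18 ± 0.14). Uqcrc1, a core protein of complex III, changed by 0.92 ± 0.11 and Atp5d by 0.90 ± 0.12. The members that fell were 3 non-muscle forms of complex IV. Cox6a1 had 66.9, 65.2 and 63.2 CPM in differentiated myoblasts against 91.1, 105 and 102 CPM in bulk myoblasts (-0.61 ± 0.13). Cox8a had 111, 99.8 and 109 CPM against 139, 155 and 159 CPM (-0.50 ± 0.11), and Cox6b2 changed by -3.71 ± 0.40. None of these groups overlapped.

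Bulk MPC and differentiated myoblasts both had high levels of muscle markers, and by TMM-scaled counts most chain members were higher in bulk MPC. By mean summed TPM nuclear complexes I, III, IV and V were higher in bulk MPC. By that measure complex II was lower, at 1008 ± 36.9 TPM against 1099 ± 57.5 TPM in differentiated myoblasts (SD). TPM add up to a fixed total, of which mitochondrial members held 22.8% in bulk MPC and 15.7% in differentiated myoblasts. By edgeR on TMM-scaled counts no complex II member was lower, and Sdhd was higher (log2 0.44 ± 0.11). Of 96 members 67 were higher in bulk MPC than in differentiated myoblasts and 0 lower, where 24.4% of all tested genes were higher and 19.4% lower. By edgeR 75 were higher and 0 lower at an unadjusted p under 0.05, and DESeq2 gave 70 higher and 0 lower at its adjusted p. Over all 15533 tested genes DESeq2 gave 3888 higher and 3204 lower. By total counts without TMM factors 44 members were higher and 1 lower, where 2824 of all tested genes were higher and 3972 lower. In the main edgeR fit nuclear members had a median log2 change of 0.36 (55 of 83 higher), mitochondrial members of 0.72 (12 of 13), and all genes of 0.07. The nuclear calls comprised 19 members of complex I, 1 of complex II, 7 of complex III, 14 of complex IV and 14 of complex V. Ndufv3 had 124, 108 and 117 CPM in bulk MPC against 59.2, 54 and 45.1 CPM in differentiated myoblasts (1.14 ± 0.12). Cox6a1 had 157, 143 and 173 CPM in bulk MPC against 66.9, 65.2 and 63.2 CPM (1.27 ± 0.13). Ndufs4, an accessory subunit of complex I, did not pass, with 88.6, 82.7 and 96.9 CPM in bulk MPC and 85.9, 90.9 and 89.9 CPM in differentiated myoblasts (0.01 ± 0.09). Leaving out 1 at a time gave 48 to 69 members higher, and 25 of the 67 calls were lost without some library.

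**Figure D3:**
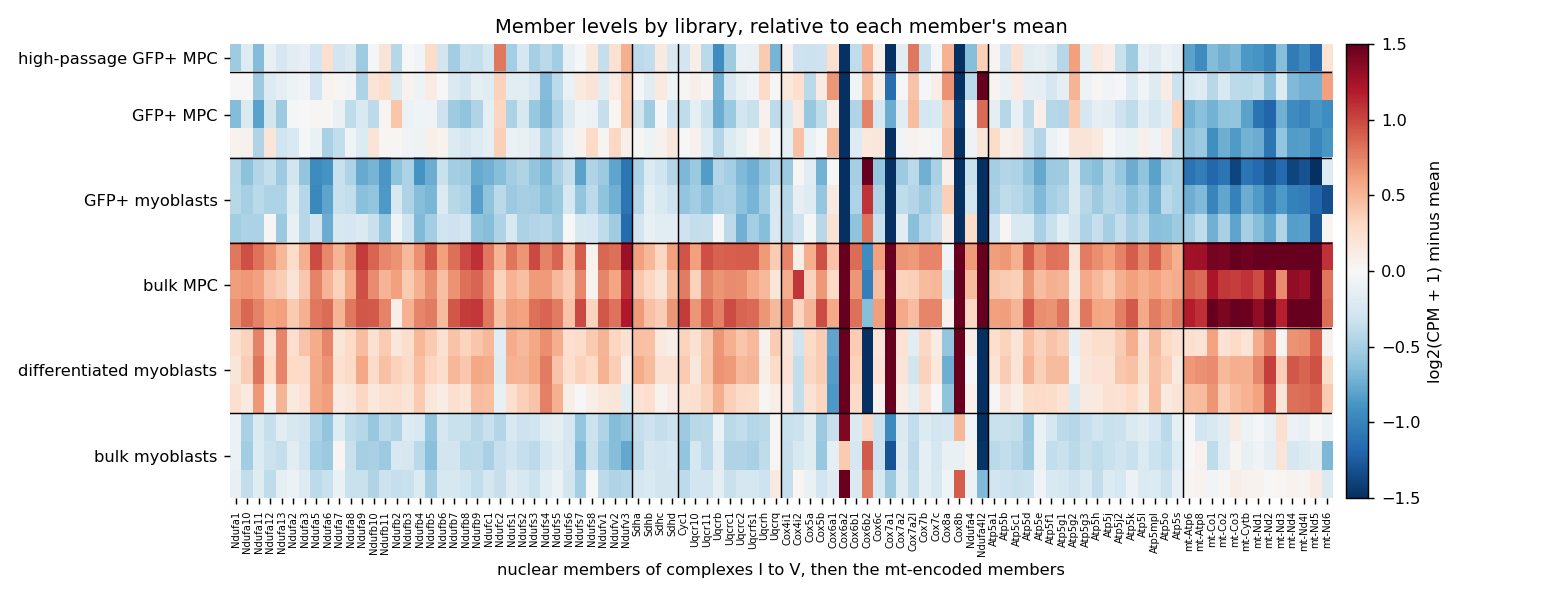
Level of each tested member in each library as the log2 difference from that member's mean (colour scale), with members in columns by complex and libraries in rows by group. Bulk MPC rows are high for nearly every member, and each of the 13 mitochondrial members is higher in every bulk MPC row than in every row of GFP+ cells.

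GFP+ cells differed from unsorted cells in the chain, and more members did so in MPC than in myoblast cultures. In myoblast cultures GFP+ cells were at passage 5 to 6 and unsorted cells at passage 3. There, sort and passage cannot be told apart. Of 96 members 86 were lower in GFP+ MPC than in bulk MPC and 2 higher, where 33.7% of all tested genes were lower and 32.9% higher. Nuclear members had a median log2 change of -0.76 (73 lower and 2 higher of 83) and mitochondrial members of -1.98 (13 of 13 lower), against -0.01 over all genes. In complex I 32 of 35 nuclear members fell (-0.83), in complex II 4 of 4 (-0.64), in complex III 9 of 9 (-0.99), in complex IV 12 of 18 (-0.72) and in complex V 16 of 17 (-0.75). Ndufs4 had 33.3, 32.7 and 38.3 CPM in GFP+ MPC against 88.6, 82.7 and 96.9 CPM in bulk MPC (-1.36 ± 0.10). Uqcrb had 39, 38.6 and 47.8 CPM in GFP+ MPC against 121, 104 and 110 CPM in bulk MPC (-1.42 ± 0.13). The 2 that rose were non-muscle forms of complex IV. Cox8a had 267, 218 and 225 CPM in GFP+ MPC against 161, 144 and 175 CPM in bulk MPC (0.57 ± 0.11), and Cox6b2 changed by 1.76 ± 0.35.

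In myoblast cultures 30 of 96 members were lower in GFP+ cells than in bulk cells and 1 was higher, where 17.4% of all tested genes were lower and 12.7% higher. Of the mitochondrial members 12 of 13 were lower (median log2 -0.86), but only 18 of 83 nuclear members (median -0.16, all genes -0.02). Complex II had no call by edgeR among its 4 members, and 0 passed at an unadjusted p under 0.05. Their log2 changes included 0.11 ± 0.11 for Sdhb and -0.06 ± 0.11 for Sdha. Ndufv3 had 23.3, 23.3 and 22 CPM in GFP+ myoblasts against 33.1, 29.1 and 37.2 CPM in bulk myoblasts (-0.54 ± 0.13). Atp5e, the epsilon subunit of the ATP synthase, had 37.5, 40.6 and 46 CPM in GFP+ myoblasts against 60.4, 60.2 and 62.2 CPM (-0.56 ± 0.12). Cox8a was the member that was higher (0.33 ± 0.11, adjusted p = 0.0424). Its call was lost without GFP+ myoblast library 2 or any bulk myoblast library, with changes of 0.23 to 0.36, and with the replicate number as a block. Uqcrq (-0.37 ± 0.12, adjusted p = 0.0335) was lost without any single one of the 6 libraries, with changes of -0.40 to -0.31.

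The difference between the sort's effects in the 2 cultures was tested directly. For 68 of 96 members it was negative past the threshold and for 0 positive, where 16.8% of all tested genes were negative and 20.3% positive. By edgeR 76 were negative and 0 positive at an unadjusted p under 0.05, and DESeq2 gave 77 negative and 0 positive at its adjusted p. Over all 15533 tested genes DESeq2 gave 3084 negative and 3141 positive. By total counts without TMM factors 33 members were negative and 5 positive, where 1547 of all tested genes were negative and 5490 positive. In the main edgeR fit the median difference was -0.58 for nuclear members (57 of 83) and -1.17 for mitochondrial members (11 of 13), against 0.09 over all genes. Complex I contributed 25 nuclear members, complex II 4, complex III 7, complex IV 8 and complex V 13. Ndufb8, an accessory subunit of complex I, had a difference of -1.27 ± 0.16. It stood at 94.1, 75.3 and 96.5 CPM in GFP+ MPC against 231, 205 and 240 CPM in bulk MPC, and at 79, 83.4 and 95 CPM in GFP+ myoblasts against 91.4, 86.6 and 93.4 CPM in bulk myoblasts. Uqcrb had a difference of -1.25 ± 0.18 and Atp5d of -1.14 ± 0.17. The sum of muscle marker transcripts was also lower in sorted than in unsorted cells of both cultures, as given above. Its part in these differences was not tested. The passage gap between GFP+ and bulk myoblasts enters these differences too and cannot be told apart from the sort.

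These values depend on the scaling. The TMM factors were 1.13 in GFP+ MPC and 1.09 to 1.15 in GFP+ myoblasts, against 0.767 to 0.867 in bulk MPC, 0.881 to 0.916 in differentiated myoblasts and 1.03 to 1.06 in bulk myoblasts. Without them, by total counts alone, the median of all genes moved to 0.46 for GFP+ MPC over bulk MPC and to -0.38 for bulk MPC over bulk myoblasts. Nuclear members of GFP+ MPC over bulk MPC then had a median of -0.28 with 8 higher and 46 lower, and mitochondrial members of -1.49 with 12 of 13 lower. Of all 15533 tested genes 7470 were then higher and 3522 lower in that comparison. In bulk MPC over bulk myoblasts the nuclear median became 0.58 and the mitochondrial median 1.02. No median of nuclear or mitochondrial members changed sign in any of the 7 comparisons.

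The 13 mitochondrial genes are read from long precursor transcripts of both strands of the circular genome. In bulk MPC over bulk myoblasts their log2 changes lay between 1.09 ± 0.23 for mt-Nd3 and 1.68 ± 0.14 for mt-Nd5, both subunits of complex I. The catalytic subunit of complex IV, mt-Co1, had 34509, 29608 and 39117 CPM in bulk MPC and 19309, 20799 and 20099 CPM in differentiated myoblasts, against 10826, 9744 and 12327 CPM in bulk myoblasts. It had 9497, 7775 and 6717 CPM in GFP+ MPC against 5643, 6407 and 7700 CPM in GFP+ myoblasts. The 3 unsorted groups did not overlap, whereas the 2 sorted groups did (0.28 ± 0.17, edgeR adjusted p = 0.199).

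Genes that share a mature transcript moved alike. In bulk MPC over bulk myoblasts mt-Nd4l and mt-Nd4, joined in a single messenger, had log2 changes of 1.60 ± 0.14 and 1.62 ± 0.16. The other such pair, mt-Atp8 and mt-Atp6, had 1.13 ± 0.19 and 1.11 ± 0.18. In GFP+ MPC over bulk MPC the first pair stood at -2.36 and -2.35 and the second at -1.53 and -1.62. In differentiated over bulk myoblasts mt-Nd2 had the largest change, 0.99 ± 0.18, whereas mt-Nd3 had 0.05 ± 0.23 and mt-Co3 0.36 ± 0.18 and did not pass.

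The only protein gene on the light strand, mt-Nd6, stood apart at low and uneven levels. It had 39.3, 12.7 and 13.3 CPM in GFP+ MPC, 21.7, 9.56 and 25.8 CPM in GFP+ myoblasts, 54.6, 44.6 and 45.9 CPM in bulk MPC, 26.1, 30.7 and 33.5 CPM in differentiated myoblasts and 23.9, 15.5 and 21.6 CPM in bulk myoblasts. Libraries were selected for poly(A), so its level also depends on how its RNA is tailed. It passed in bulk MPC over bulk myoblasts (1.25 ± 0.41) and in GFP+ MPC over bulk MPC (-1.15 ± 0.41). The first call was lost without bulk MPC library 1 (1.15) or bulk myoblast library 2 (1.08). The second was lost without GFP+ MPC library 2 (-0.87) or 3 (-0.89) or bulk MPC library 1 (-1.06), and stood at -1.89 without GFP+ MPC library 1.

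Copies of mitochondrial DNA in the nuclear genome resemble several of these genes. Of the 31-base words of each transcript, more than 50% also occurred in annotated genes outside the files, mostly unprocessed pseudogenes, for 7 of the 13 mitochondrial members, among them mt-Co1 (63.9%), mt-Co2 (100%), mt-Co3 (99.9%) and mt-Atp6 (99.5%). Reads of such copies, if any were expressed, would have been counted with the mitochondrial genes. In mt-Nd1 none of the words was shared, and in mt-Cytb 6.6%. Their log2 changes in bulk MPC over bulk myoblasts, 1.32 ± 0.20 and 1.39 ± 0.18, lay within the range of the other genes. Among nuclear members the highest such share was 40.2%, in Atp5g2.

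Several complex IV subunits have a muscle form beside the ubiquitous form, and the balance of these forms differed widely between the groups. The 180 bases before the annotated start are shown for Cox8b and Cox7a1, muscle forms of COX8 and COX7A, for their ubiquitous counterparts Cox8a and Cox7a2, and for the ubiquitous Cox6a1, since muscle and ubiquitous forms moved apart from each other (RefSeq, mouse build GRCm38.p6, read in the direction of the gene). The stretches are chr7:140900447-140900626 (minus strand) for Cox8b, chr19:7217617-7217796 (minus strand) for Cox8a, chr7:30183991-30184170 (plus strand) for Cox7a1, chr9:79759854-79760033 (minus strand) for Cox7a2 and chr5:115348959-115349138 (minus strand) for Cox6a1. Capitals mark matches to the E-box CAGCTG, the NRF1 motif GCGCANGCG or the GABPA motif CCGGAAG, searched on both strands.

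Cox8b: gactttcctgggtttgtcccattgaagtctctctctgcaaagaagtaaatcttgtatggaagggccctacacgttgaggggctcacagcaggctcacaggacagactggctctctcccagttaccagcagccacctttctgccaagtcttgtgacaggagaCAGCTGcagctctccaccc

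Cox8a: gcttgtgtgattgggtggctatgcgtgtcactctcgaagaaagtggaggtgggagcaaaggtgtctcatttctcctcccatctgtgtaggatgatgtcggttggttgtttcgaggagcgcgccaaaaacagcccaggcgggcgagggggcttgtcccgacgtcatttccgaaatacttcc

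Cox7a1: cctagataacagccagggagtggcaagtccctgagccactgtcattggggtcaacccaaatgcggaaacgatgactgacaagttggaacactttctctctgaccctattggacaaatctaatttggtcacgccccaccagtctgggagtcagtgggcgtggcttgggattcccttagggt

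Cox7a2: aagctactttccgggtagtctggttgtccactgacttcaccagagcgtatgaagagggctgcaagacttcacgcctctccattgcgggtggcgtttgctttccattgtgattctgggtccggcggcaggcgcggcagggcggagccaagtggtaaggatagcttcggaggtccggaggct

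Cox6a1: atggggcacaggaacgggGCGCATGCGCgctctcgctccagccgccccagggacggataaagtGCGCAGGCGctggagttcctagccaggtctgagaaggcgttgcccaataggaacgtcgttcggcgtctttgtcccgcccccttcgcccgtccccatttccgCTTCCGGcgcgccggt

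The Cox6a1 stretch holds 3 NRF1 matches, of which 2 overlap, and 1 GABPA match, the Cox8b stretch 1 E-box and the Cox8a, Cox7a1 and Cox7a2 stretches none of the 3. NRF1 and GABPA are factors known for the promoters of nuclear genes of the chain, and myogenic factors such as MyoD bind E-boxes. Over the wider window of 250 bases before to 50 after the start, 66 of the 86 nuclear members had a promoter in the table. In that window Cox8a has 2 GABPA matches and Cox8b 2 E-boxes, whereas Cox7a1, Cox7a2 and Ndufv3 have no match to any motif searched. A gene with several starts was counted once, if any of them had the motif. The NRF1 motif occurred in 20 of the 66 members (30.3%), against 7.03% of all 27025 genes with a promoter. The GABPA motif occurred in 16 (24.2%), against 9.93%. The motif AAGGTCA, bound by oestrogen-related receptors, occurred in 8 (12.1%), against 5.38%, the E-box in 6 (9.09%), against 18.3%, and the MEF2 motif in 0, against 0.636%. Base composition was not matched in these shares.

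Cox6a2, the heart and muscle form of COX6A, separated all 5 groups. It stood at 7.57, 20.3 and 4.49 TPM in GFP+ MPC, 1.6, 1.11 and 2.79 TPM in GFP+ myoblasts, 228, 258 and 302 TPM in bulk MPC, 537, 541 and 437 TPM in differentiated myoblasts and 165, 83 and 208 TPM in bulk myoblasts. No 2 groups overlapped, and unsorted groups were far above sorted groups. The ubiquitous Cox6a1 stood at 615, 444 and 600 TPM in GFP+ MPC, 446, 480 and 484 TPM in GFP+ myoblasts, 357, 377 and 418 TPM in bulk MPC, 203, 195 and 193 TPM in differentiated myoblasts and 309, 364 and 353 TPM in bulk myoblasts. Cox6a2 thus supplied 0.743% to 4.38% of COX6A transcripts in GFP+ MPC, 0.231% to 0.573% in GFP+ myoblasts, 39% to 42% in bulk MPC, 69.4% to 73.5% in differentiated myoblasts and 18.6% to 37.1% in bulk myoblasts. Bulk MPC were 31.3 percentage points below differentiated myoblasts and 10.4 points above bulk myoblasts in mean share, in both cases without overlap (exact permutation p = 0.1, and 0.25 with bulk MPC and bulk myoblasts paired).

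Cox8b had the same order of groups as Cox6a2. Its share of Cox8a and Cox8b transcripts was 0.615% to 1.99% in GFP+ MPC, 0.233% to 0.476% in GFP+ myoblasts, 34.2% to 38.5% in bulk MPC, 40.5% to 49.6% in differentiated myoblasts and 8.58% to 16.5% in bulk myoblasts. Cox7a1, the muscle form of COX7A, differed in that bulk MPC and not differentiated myoblasts had its highest level. It stood at 138, 130 and 177 TPM in bulk MPC and 98.5, 117 and 90.5 TPM in differentiated myoblasts, against 10.3, 6.76 and 16.2 TPM in bulk myoblasts. Its share of Cox7a1 and Cox7a2 transcripts was 20.1% to 24.8% in bulk MPC, 15.6% to 18.3% in differentiated myoblasts and 1.5% to 3.46% in bulk myoblasts, with 0.541% to 2.72% in GFP+ MPC and 0.439% to 0.741% in GFP+ myoblasts.

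By edgeR all 3 muscle forms were higher in bulk MPC than in bulk myoblasts, Cox7a1 by a log2 change of 4.20 ± 0.43, Cox8b by 1.92 ± 0.32 and Cox6a2 by 1.27 ± 0.40 (adjusted p = 0.0149). The Cox6a2 call was lost without bulk myoblast library 2 (0.96, adjusted p = 0.0643). In differentiated over bulk myoblasts they changed by 3.35 ± 0.42, 2.01 ± 0.32 and 1.92 ± 0.41 in the same order. None of the 3 passed between bulk MPC and differentiated myoblasts, where the values were 0.85 ± 0.37 for Cox7a1, -0.09 ± 0.30 for Cox8b and -0.65 ± 0.39 for Cox6a2. In GFP+ MPC over bulk MPC they fell by 4.68, 4.93 and 5.11 on the log2 scale (SE 0.44, 0.38 and 0.48), with a value of -5.92 for Cox6a2 without GFP+ MPC library 2.

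In the sorted cells the muscle forms were scarce but not equal. In GFP+ MPC over GFP+ myoblasts Cox6a2 had a log2 change of 2.66 ± 0.58 and Cox8b of 2.16 ± 0.49 (edgeR adjusted p = 0.00203 and 0.00267). Cox6a2 had 40 to 173 counts per library in GFP+ MPC and 10 to 21 in GFP+ myoblasts. Without GFP+ MPC library 2 the Cox6a2 change was 1.85. Cox7a1 had 1.65 ± 0.51 (adjusted p = 0.0169), and its call was lost without GFP+ MPC library 2 (1.09) or GFP+ myoblast library 1 (1.34). The muscle marker sum was likewise higher in GFP+ MPC, at 1097 to 2984 TPM against 471 to 729 TPM in GFP+ myoblasts, and its part in these changes was not tested. The difference of the sort's effects was -2.55 ± 0.67 for Cox7a1, which passed, but 0.24 ± 0.56 for Cox8b and 1.40 ± 0.71 for Cox6a2 (0.59 without GFP+ MPC library 2), which did not.

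**Figure D4:**
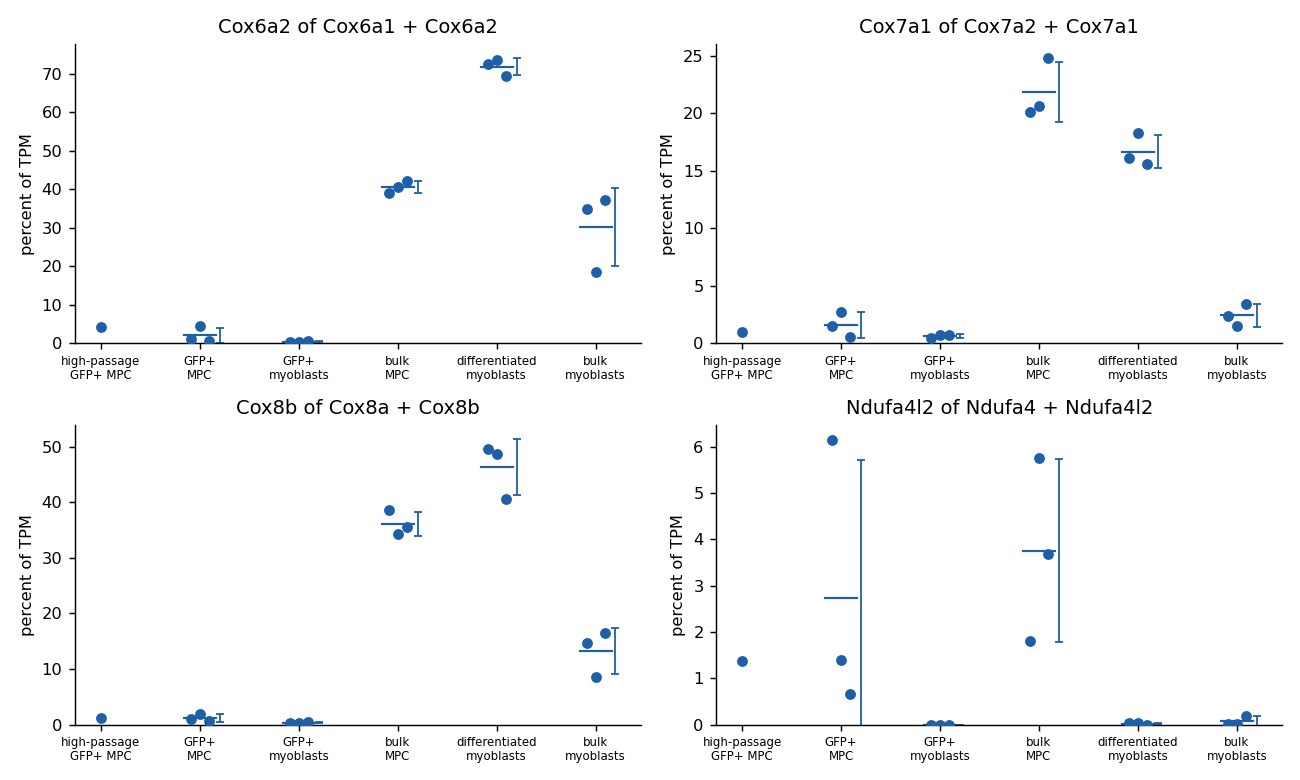
Share of each tissue form within its set, as a percentage of the set's TPM (linear axes from 0), by library. Points are libraries, bars the mean with the SD. Cox6a2, Cox7a1 and Cox8b are near 0 in the sorted groups and high in bulk MPC and differentiated myoblasts, with the Cox6a2 share at 39 to 42% and 69.4 to 73.5%.

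The other tissue forms moved apart from the muscle forms. The Cox6b2 share of COX6B transcripts was 4.09% ± 1.08 in GFP+ MPC against 9.27% ± 3.99 in GFP+ myoblasts, and 0.601% ± 0.111 in bulk MPC and 0.301% ± 0.103 in differentiated myoblasts against 4.92% ± 1.05 in bulk myoblasts (SD, n = 3 each). It was highest in GFP+ myoblasts (6.75% to 13.9%), while GFP+ MPC (3.3% to 5.32%) and bulk myoblasts (3.78% to 5.84%) overlapped in it. How it relates to the muscle marker sums given above was not tested. Atp5g1, Atp5g2 and Atp5g3 encode the same c-ring protein behind different import sequences. Atp5g2 supplied 26.8% ± 4.54 of their transcripts in GFP+ MPC and 23.3% ± 1.46 in GFP+ myoblasts, but 15.8% ± 0.84 in bulk MPC and 17.2% ± 0.2 in differentiated myoblasts, against 20.4% ± 0.309 in bulk myoblasts (SD, n = 3 each). Atp5g3 supplied the most in every group, 54.1% to 60.1% on average.

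Ndufa4l2, a relative of the complex IV subunit Ndufa4 that is known to be induced under low oxygen, was found almost only in cells grown with the compounds. It had 453, 107 and 62 estimated counts in GFP+ MPC and 0 in each GFP+ myoblast library, 260, 873 and 394 counts in bulk MPC, 1, 1 and 0 in differentiated myoblasts and 1, 2 and 26 in bulk myoblasts. The groups with and without compounds, which also differed in medium and passages, did not overlap. Its level in GFP+ MPC was at least 232-fold higher than in GFP+ myoblasts, set against a floor of 3 counts over that group, and at least 91.3-fold higher without GFP+ MPC library 1, which held 453 of the 622 counts. In bulk MPC over bulk myoblasts the ratio of counts per total was 70.8 (95% counting interval 49.1 to 106), and edgeR's log2 change of 6.15 ± 1.06 became 8.64 without bulk myoblast library 3, which held 26 of the 29 counts of its group. In GFP+ MPC over bulk MPC the change did not pass (-1.52, adjusted p = 0.119), but it was -2.91 and passed without GFP+ MPC library 1. Per length it remained the minor form, at 6.9 to 48.7 TPM in GFP+ MPC and 20.7 to 70.3 TPM in bulk MPC, beside 744 to 1027 TPM and 940 to 1148 TPM of Ndufa4. Cox4i2, a form of COX4 likewise tied to low oxygen, had 12, 10 and 19 counts in GFP+ MPC against 10, 5 and 1 in GFP+ myoblasts, and 8, 36 and 10 in bulk MPC against 1, 0 and 0 in differentiated myoblasts and 1, 2 and 9 in bulk myoblasts. Its ratio of bulk MPC over bulk myoblasts was 6.05 (3.2 to 12.4), and the edgeR call (2.54) was lost without bulk MPC library 2 (1.65).

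Ndufv3 was resolved by transcript, a gene singled out after its values were seen. Mouse Ndufv3 has a short transcript of 493 bases and a long transcript of 1582 bases that keeps an additional exon. The short transcript averaged 158 ± 13.9 TPM in GFP+ MPC against 68.5 ± 7.95 in GFP+ myoblasts, and 331 ± 14.4 in bulk MPC against 110 ± 15.9 in bulk myoblasts (SD, n = 3 each). In differentiated myoblasts it ranged from 173 to 234 TPM. The long transcript averaged 31.8 ± 3.68 TPM in GFP+ MPC against 10.9 ± 3.43 in GFP+ myoblasts, and 17.7 ± 3.26 in bulk MPC and 6.86 ± 0.913 in differentiated myoblasts against 11.4 ± 0.845 in bulk myoblasts. Its share of the gene was 16.6% ± 0.401 in GFP+ MPC and 13.7% ± 4.92 in GFP+ myoblasts, and was 5.09% ± 1.08 in bulk MPC and 3.33% ± 0.598 in differentiated myoblasts, against 9.38% ± 0.661 in bulk myoblasts. GFP+ myoblast library 3, at 8.03%, was well below the other 2 of its group, at 16% and 17%.

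Genes around the chain were followed by lists. In bulk MPC over bulk myoblasts, 19 of 24 genes of the citric acid cycle and pyruvate dehydrogenase were higher and 1 lower (median log2 1.05), and 16 of 21 carriers and other partners higher and 1 lower (1.01). Of 50 assembly factors 34 were higher and 1 lower (0.57), and of 78 proteins of the mitochondrial ribosome 62 higher and 2 lower (0.48). The machinery that copies and transcribes mitochondrial DNA had 7 of 20 higher and 1 lower (0.25), beside 13 of 13 mitochondrial members and 28.4% higher and 30.1% lower of all tested genes, so that its share of higher genes was not far from that of all genes. In GFP+ MPC over GFP+ myoblasts the same lists had 9 higher and 3 lower (0.18), 11 and 2 (0.27), 14 and 4 (0.27), 31 and 4 (0.23) and 8 and 2 (0.25), where 26% of all tested genes were higher and 22.7% lower, and the assembly factors' share of higher genes was close to that of all genes. In GFP+ MPC over bulk MPC they had 3 higher and 20 lower (-1.09), 1 and 16 (-0.77), 2 and 28 (-0.42), 8 and 26 (-0.14) and 7 and 6 (0.06), where 32.9% of all tested genes were higher and 33.7% lower.

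Single genes of these lists moved further than any list. Pdk1, a kinase that shuts off pyruvate dehydrogenase, had 103, 71.8 and 24.2 CPM in GFP+ MPC against 7.49, 7.93 and 12 CPM in GFP+ myoblasts (log2 2.87 ± 0.44). It had 377, 293 and 242 CPM in bulk MPC and 57.6, 51.4 and 48.1 CPM in differentiated myoblasts, against 42.2, 21 and 46.9 CPM in bulk myoblasts (bulk MPC over bulk myoblasts 3.05 ± 0.44). Cells grown with the compounds did not overlap their counterparts in Pdk1. Ckmt2, the mitochondrial creatine kinase of muscle, had 296, 194 and 296 CPM in bulk MPC and 75.4, 89.3 and 50.4 CPM in differentiated myoblasts, against 14.3, 3.4 and 14 CPM in bulk myoblasts (4.62 ± 0.53). Higd1a, a small protein known to bind complex IV under low oxygen, had 186, 134 and 134 CPM in bulk MPC against 40.7, 34.3 and 38.9 CPM in bulk myoblasts (2.00 ± 0.13). Against the direction of its list, Mrps6 of the small mitochondrial ribosomal subunit fell to 15.4, 13.2 and 16.1 CPM in GFP+ MPC, against 62.1, 72.5 and 86.8 CPM in GFP+ myoblasts (-2.30 ± 0.15), and to 12, 13.4 and 12.7 CPM in bulk MPC, against 53.6, 54.9 and 40.9 CPM in bulk myoblasts (-1.97 ± 0.15). Gpd2, which passes electrons from glycerol 3-phosphate to ubiquinone, fell in GFP+ MPC over GFP+ myoblasts (-1.79 ± 0.19).

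Known regulators of the chain's nuclear genes were followed as a list of 16. Of these, 4 were higher and 2 lower in GFP+ MPC over GFP+ myoblasts, where 26% of all tested genes were higher and 22.7% lower. In bulk MPC over bulk myoblasts 7 were higher and 6 lower, where 28.4% of all tested genes were higher and 30.1% lower. Ppargc1a, the coactivator best known for mitochondrial biogenesis in muscle, had 0.317, 1.18 and 0.474 CPM in GFP+ MPC against 16.7, 14.6 and 24.8 CPM in GFP+ myoblasts (log2 -4.81 ± 0.55, edgeR adjusted p = 1.45e-05). It had 5.47, 2.06 and 10.4 CPM in bulk MPC and 29.9, 29.9 and 21.7 CPM in differentiated myoblasts, against 13.4, 12.4 and 16.1 CPM in bulk myoblasts (bulk MPC over bulk myoblasts -1.24 ± 0.45, adjusted p = 0.0305). Both groups grown with the compounds lay below all libraries grown without them. Its relative Ppargc1b had the opposite direction, with 25.1, 28.7 and 32.3 CPM in GFP+ MPC against 14.9, 17.7 and 18.4 CPM in GFP+ myoblasts (0.76 ± 0.13). In bulk MPC it had 79.1, 67.3 and 81 CPM, in differentiated myoblasts 27.8, 31.2 and 31.9 CPM, and in bulk myoblasts 21.1, 17.5 and 17.9 CPM (bulk MPC over bulk myoblasts 2.01 ± 0.13).

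Esrrg, an oestrogen-related receptor of oxidative muscle, was scarce in sorted cells and highest in bulk MPC. It had 0.77, 1.39 and 0.434 CPM in GFP+ MPC against 48.4, 33.6 and 46.4 CPM in bulk MPC (-5.63 ± 0.42), while differentiated myoblasts had 27.1, 31.6 and 18.9 CPM and bulk myoblasts 19.6, 10.3 and 12.3 CPM. Ppard, a nuclear receptor of fatty acid oxidation, was higher in bulk MPC than in bulk myoblasts (1.40 ± 0.10), as was Sirt3, the mitochondrial deacetylase (1.27 ± 0.15). The factor Nrf1, whose motif is marked above, had 17.1, 21.4 and 18 CPM in bulk MPC against 30.2, 30.9 and 31.7 CPM in bulk myoblasts (-0.72 ± 0.15), without overlap.

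**Figure D5:**
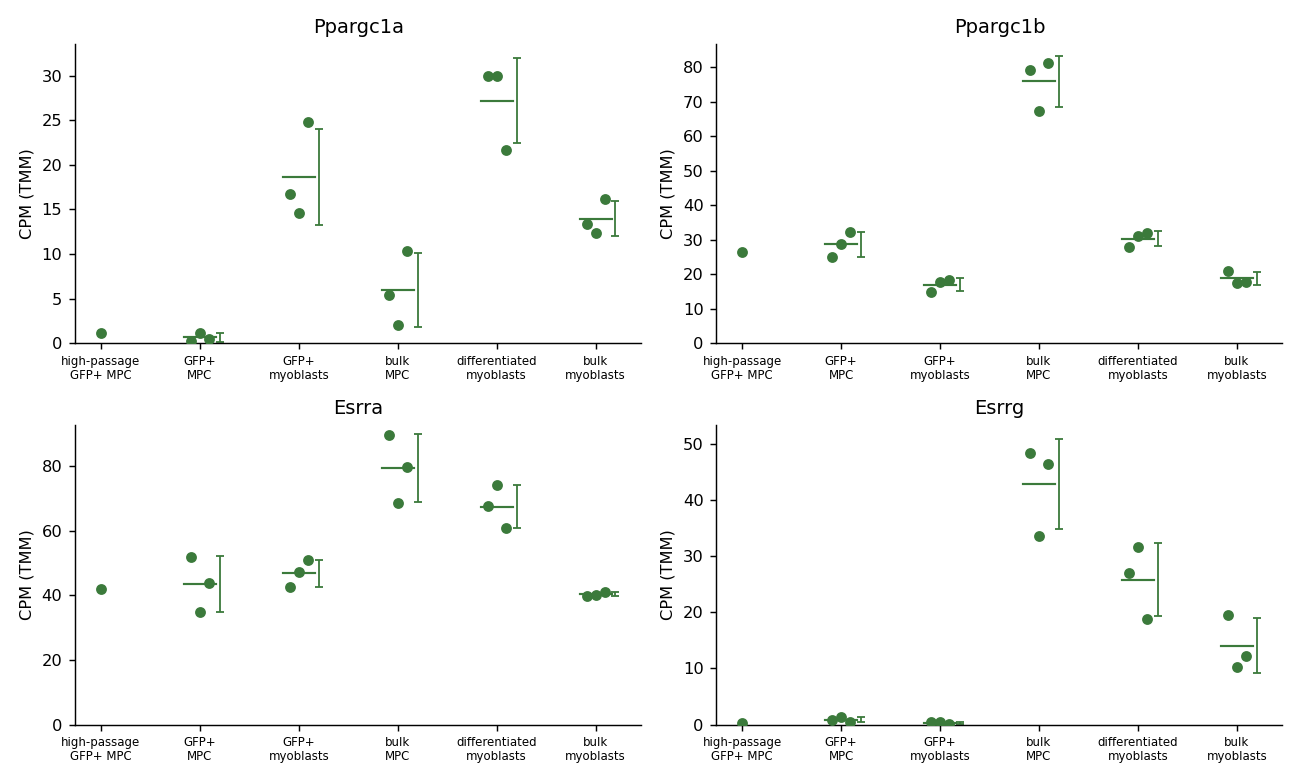
Level of regulator genes in CPM scaled by TMM (linear axes from 0), by library. Points are libraries, bars the mean with the SD. Ppargc1a is at or below 10.4 CPM in GFP+ MPC and bulk MPC and at least 12.4 CPM in the other 3 replicated groups, while Ppargc1b reaches 67.3 to 81 CPM in bulk MPC.

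The high-passage GFP+ MPC library had no replicate and took part in no test. Its nuclear members made up 2.9% of TPM and its mitochondrial members 6.04%, against 2.91 to 3.5% and 6.83 to 8.54% in the GFP+ MPC libraries. Of 83 nuclear members 15 lay above and 18 below all 3 GFP+ MPC libraries, which were 18.1% and 21.7%, where 26% and 26.4% of all tested genes did so. Of the 13 mitochondrial members 0 lay above and 5 below. Ndufv3 stood at 73.4 CPM, Pax7 at 76.3 TPM and the Cox6a2 share at 4.12%, beside 53.1 to 66.5 CPM, 154 to 234 TPM and 0.743 to 4.38% in GFP+ MPC.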

How the data were processed

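RNA of 16 libraries was poly(A)-selected into stranded libraries and read single-end, per the labels' protocols. Reads were trimmed with fastp 0.20.0 and quantified with kallisto 0.46.1 against GRCm39, per the submitters' processing notes. The deposited tables give, per transcript and per the file headers, an estimated count, TPM and an effective length (not used in tests except to scale counts in an alternative). Of 121798 transcripts, 120739 were matched by identifier to GENCODE M21, used for gene names only, and estimated counts and TPM were summed over 35613 genes. Unmatched transcripts held 0.478% to 1.054% of the counts.

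Counts were rounded. edgeR 4.0.16 (R 4.3.3; TMM, filterByExpr with a minimum of 10 counts and 15 in total, quasi-likelihood F test, Benjamini-Hochberg over 15533 genes) was fitted to the 15 replicated libraries with a term per group, 7 contrasts and a common dispersion of 0.047. A call is an adjusted p under 0.05. Errors of fold changes are SE derived from the test, as the absolute log2 change over the square root of F. The test was run on simulated data with known changes. Shares were compared by exact permutation tests. Counting intervals (95%) and the floor of 3 counts cover counting error only. Other software was Python 3.11.15, pandas 2.3.3 and scipy 1.17.1.

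Groups came from sample labels. No 2 libraries agreed within sampling noise (chi-square per degree of freedom 10.6 to 64.1). Same-numbered libraries share a prefix in their library names. Their deviations correlated at 0.131 to 0.163 in all 3 pairs of bulk MPC and bulk myoblasts, so these were taken as paired. The main edgeR fit has no term for this pairing, which only the replicate block and the paired permutation test of shares use. In the other comparisons not every pair exceeded 0.1. The replicate block is an alternative, as are DESeq2 1.42.0, RLE factors, no low-count filter, length-scaled counts, mitochondrial genes left out of library sizes, fits on the compared groups only and each library left out. Total counts without TMM factors and a paired exact permutation test of shares were added after the data were seen.

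The member set and the gene lists were chosen with earlier results of these data known, while each member entered by its symbol alone. Named genes were the mitochondrial members, tissue forms, members without enough counts and, per complex and comparison, the largest rise and fall past the threshold at 10 CPM or more that moved alike in all 3 same-numbered pairs, and up to 3 genes per other list by the same rule, with any regulator. Other members named are examples. Promoters are from RefSeq (GRCm38.p6), matched by symbol. Words of 31 bases shared between transcripts were counted in GENCODE M21.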

Additional observations from a re-analysis of the deposited data

Results flagged for a closer look

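The effect of the GFP sort was set against itself in the 2 cultures, as the log2 change of GFP+ over bulk cells in MPC culture minus that in myoblast culture, tested within the edgeR fit. For 68 members this difference was negative past the adjusted p of 0.05. Among the mitochondrial members it was -1.17 for mt-Nd1, -1.54 for mt-Nd2, -1.38 for mt-Nd4, -1.40 for mt-Nd4l, -1.22 for mt-Nd5, -1.26 for mt-Cytb, -1.37 for mt-Co1, -1.16 for mt-Co2, -0.86 for mt-Co3, -0.84 for mt-Atp6 and -0.91 for mt-Atp8. In complexes I to III it was -1.27 for Ndufb8, -0.78 for Sdhb and -1.25 for Uqcrb. In complex IV it was -2.55 for the muscle form Cox7a1, -0.62 for Cox4i1, -0.71 for Cox6b1, -0.45 for Cox7a2 and -0.59 for Ndufa4. In complex V it was -1.14 for Atp5d, -0.85 for Atp5g1 and -0.57 for Atp5g3. The calls of Cox7a2 and Ndufa4 were lost without single libraries. The share of differentiated cells removed by the sort and these differences cannot be told apart. The same holds for passage, which differed between GFP+ and bulk myoblasts but not between GFP+ and bulk MPC.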

How the results depend on the processing

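Of the fold changes of the 96 members in 7 comparisons, 5073 kept direction and side of the threshold under the alternatives that kept all libraries, 224 lost the call, 61 gained it and 12 changed sign, all 12 under total counts without TMM factors, which was added after the data were seen. These were Cox8a (-0.28) and Uqcrq (-0.07) in bulk MPC over bulk myoblasts, Atp5c1 (0.05), Cox7a2l (0.32), Ndufa2 (0.08), Ndufc2 (0.39), Ndufs8 (0.47), Sdhc (0.25) and Uqcrh (0.05) in GFP+ MPC over bulk MPC, and Atp5l (0.03), Ndufb3 (0.02) and Sdhc (0.06) in the difference of sort effects. The same scaling gave 2 members lower in bulk MPC over bulk myoblasts, 44 higher and 1 lower in bulk MPC over differentiated myoblasts, 8 higher in GFP+ MPC over bulk MPC, 2 higher in GFP+ over bulk myoblasts, and 5 higher and 33 lower in the difference. In that order, all 15533 tested genes had 6985 lower, 2824 higher and 3972 lower, 7470 higher, 2981 higher, and 5490 higher and 1547 lower. Fits on the compared groups only gave 28 higher and 0 lower in GFP+ MPC over GFP+ myoblasts and 1 lower in bulk MPC over differentiated myoblasts. Over all tested genes these fits gave 2411 higher and 2810 lower of 13914, and 3580 lower of 14097. Without the low-count filter 1 member was lower in GFP+ MPC over GFP+ myoblasts and 0 higher in GFP+ over bulk myoblasts, where DESeq2 and RLE factors each gave 2. The cause of these shifts was not tested.

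With the replicate block, 93 members were higher in bulk MPC over bulk myoblasts, 51 in GFP+ MPC over GFP+ myoblasts, 80 in differentiated over bulk myoblasts, 63 in bulk MPC over differentiated myoblasts and 0 in GFP+ over bulk myoblasts, and 64 were lower in the difference of sort effects. The block changed no other count by over 1.5 times.

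Leaving out 1 library gave 41 to 60 higher and 1 to 2 lower in GFP+ MPC over GFP+ myoblasts, 90 to 93 higher in bulk MPC over bulk myoblasts, 75 to 80 higher in differentiated over bulk myoblasts, 48 to 69 higher in bulk MPC over differentiated myoblasts, 2 to 3 higher and 84 to 87 lower in GFP+ MPC over bulk MPC, 0 to 2 higher and 20 to 30 lower in GFP+ over bulk myoblasts, and 0 to 1 higher and 56 to 72 lower in the difference.

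Shares of estimated counts in place of TPM were 46.2% in bulk MPC and 76.4% in differentiated myoblasts for Cox6a2, 0.39% in GFP+ myoblasts, 14.5% in bulk MPC and 10.8% in differentiated myoblasts for Cox7a1, and 0.154%, 19.6%, 27.9% and, in bulk myoblasts, 6.36% for Cox8b. Mitochondrial members made up 7.41%, 6.56%, 22.8%, 15.7% and 11.2% of TPM in GFP+ MPC, GFP+ myoblasts, bulk MPC, differentiated and bulk myoblasts. Their ratio to nuclear members was 3.96 in bulk myoblasts by counts.

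Groups of 3 limit the exact tests, members with few counts carry counting error, and poly(A) selection and nuclear copies bear on mitochondrial levels. Only transcripts were measured.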
